A study of Musa acuminata AAA Group with 4 samples.

Results

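The genes described here are named for protein families that choose targets for ubiquitin, and their function was not tested. They were measured in Cavendish banana seedlings (Musa acuminata AAA group). Leaves and roots were sampled after 60 days of low or normal potassium. They are the genes of the authors' deposited leaf or root table whose matched database protein is called a ubiquitin-protein ligase, F-box, U-box, RING finger, RING-H2 or BTB/POZ protein, without those named for EIN3, auxin or gibberellin. The rule found 165 genes among the 5520 genes of both tables. Of these, 34 are in the leaf table, 139 in the root table and 8 in both. The 4 samples are LK leaf, NK leaf, LK root and NK root, where LK seedlings received the low-potassium culture solution and NK seedlings the complete Hoagland solution. The labels give no potassium concentration, number of seedlings or pooling.

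Ubiquitin is a small protein that cells attach to other proteins, often marking them for breakdown by the proteasome. An activating enzyme passes ubiquitin to a conjugating enzyme, and a ligase brings the conjugating enzyme to the target. RING and U-box proteins are ligases that hold the conjugating enzyme themselves. F-box and BTB proteins are adaptors that hold the target and attach to a cullin scaffold, F-box proteins through SKP1 and BTB proteins directly. Plants have large families of each, and several members act in hormone, light, nutrient and pathogen responses.

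Each group is 1 library, so no test was possible and every fold sets 2 libraries side by side with no replicate check. Recovered depth lay between 4203693 and 4555265 fragments per library. Levels are FPKM, fragments per kilobase of coding length scaled to library size, as deposited. A fold is the ratio of 2 FPKM values, with an exact binomial 95% interval for counting error alone. A gene is called higher or lower when the authors' table of that tissue lists it, at 2-fold or more and an FDR of at most 0.001. A difference of that size is therefore how members were chosen, and members of these families outside the tables were not analysed here. Whole tissue was sequenced, so more cells of a type and more RNA per cell cannot be told apart. The tables also list photosynthesis genes, which mark green tissue. All 7 listed in leaf were higher in LK leaf, with a summed level of 1037 FPKM in LK leaf and 375 FPKM in NK leaf, and all 7 have estimated counts that are not whole. All 3 listed in root were higher in LK root, with a summed level of 81.2 FPKM in LK root and 16.7 FPKM in NK root. Of all listed genes, 67.4% were higher in leaf and 40.4% in root. The part of the photosynthesis genes in the results below was not tested.

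In root, 83 of the 139 listed members were higher in low potassium (59.7%), against 40.4% of all 4747 genes listed in root, and 56 were lower. The median log2 ratio of LK root over NK root was 1.18 for the members and -1.20 for all listed genes. No listed gene changed by less than 2-fold, so a median over both directions, here and below, largely follows the split. It is not a typical change. Among the higher genes the median was 1.57 for the root members and 1.69 for all listed in root. Among the lower genes it was -1.78 and -1.80. In leaf, 22 of 34 were higher (64.7%), against 67.4% of the 1183 genes listed in leaf, and 12 were lower, so the leaf members were split much like the leaf table. The leaf median log2 ratio was 1.70 for the members and 1.32 for all listed genes. Among members with a larger FPKM of at least the table's median, 45 were higher and 10 lower in root, where 48.5% of all such genes were higher. In leaf the same filter left 5 higher and 5 lower, where 69.3% of all such genes were higher. A ratio of at least 4-fold was reached by 46 of the 139 root members (33.1%), 25 higher and 21 lower, against 39% of all genes listed in root, 14.6% higher and 24.4% lower. In leaf it was reached by 18 of 34 (52.9%), 14 higher and 4 lower, against 34.8% of all genes listed in leaf, 26.5% higher and 8.37% lower. The summed level of the root members was 4740.2 FPKM in LK root and 2282 FPKM in NK root. In leaf it was 542 FPKM in LK leaf and 439 FPKM in NK leaf.

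**Figure D1:**
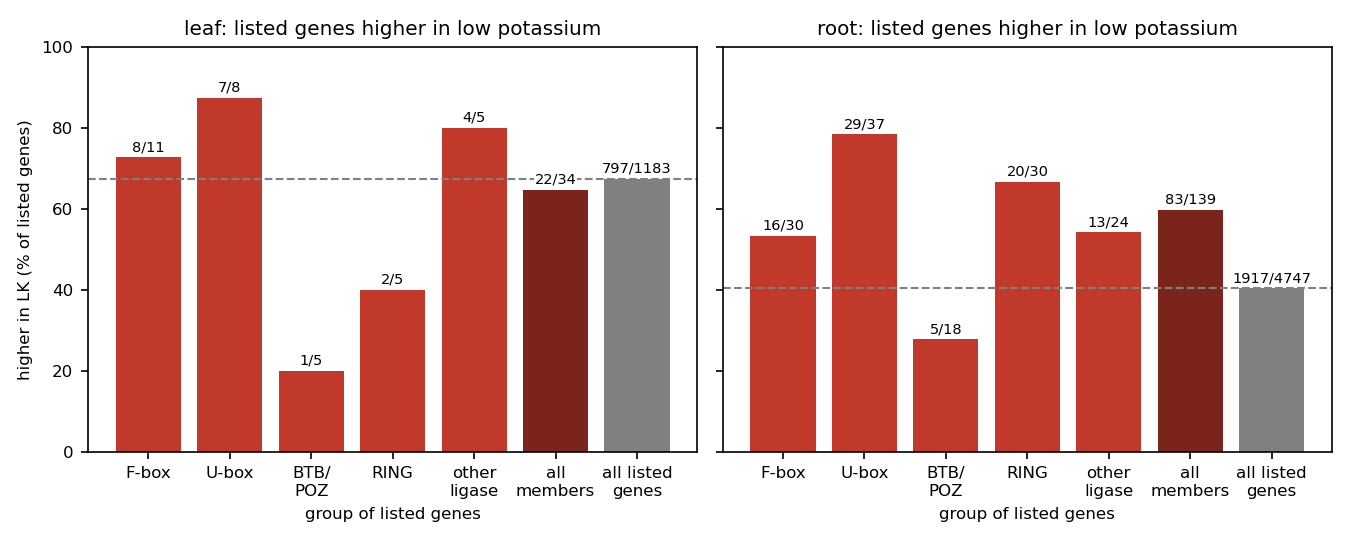
Share of listed genes that were higher in low potassium (y axis, percent), for the 5 classes, for the members together and for all listed genes, in leaf (left) and root (right). Numbers above the bars give higher genes over listed genes, and the dashed line is the share over the whole table. In root the U-box bar stands at 29 of 37 and the BTB/POZ bar at 5 of 18, on opposite sides of the line.

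The classes differed in direction. In root the members comprised 37 U-box genes, 30 RING genes, 30 F-box genes, 18 BTB/POZ genes and 24 ubiquitin ligases named in another way. The share that was higher was 78.4% for U-box, 66.7% for RING, 54.2% for the other ligases, 53.3% for F-box and 27.8% for BTB/POZ genes. For all genes listed in root it was 40.4%. The leaf members comprised 11 F-box, 8 U-box, 5 RING and 5 BTB/POZ genes and 5 other ligases. The U-box class had the highest share higher and the BTB/POZ class the lowest in both tables.

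**Figure D2:**
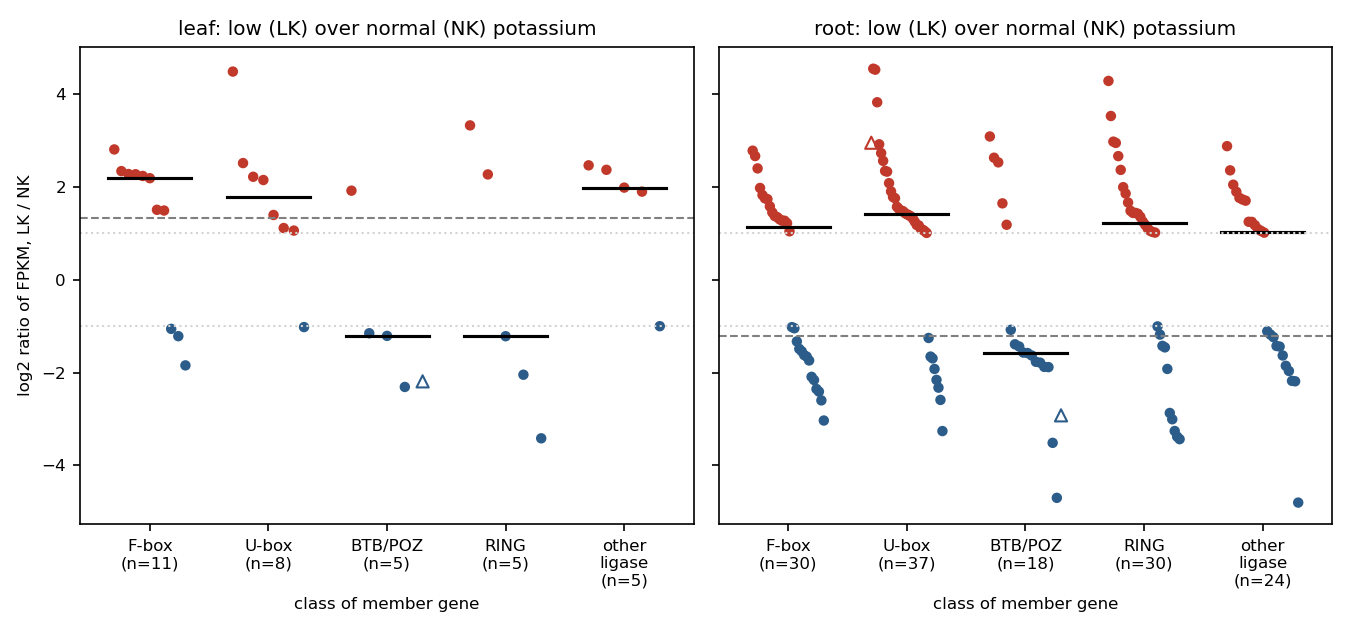
Log2 ratio of FPKM in low over normal potassium (y axis) for each member, by class, in leaf (left) and root (right). Circles are genes, open triangles are genes with no fragment in 1 library set against a floor of 3 fragments, black bars are class medians, the dashed line is the median of all listed genes and dotted lines mark 2-fold. The gap between the dotted lines is the authors' limit, and only the BTB/POZ median lies below it in root.

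U-box genes had the highest summed level of the 5 classes in root, and 29 of 37 were higher (78.4%), against 40.4% of all genes listed there. The U-box domain-containing protein 16-like gene (Ma07_g23620) measured 457 FPKM in LK root and 90.9 FPKM in NK root, 5.03-fold higher (interval 4.67 to 5.42). A PUB23-like gene (Ma07_g03310) measured 389.9 FPKM in LK root and 76.7 FPKM in NK root, 5.08-fold higher (interval 4.58 to 5.66). PUB23 of Arabidopsis, with its close relatives, dampens immune signalling and drought responses. These were the highest levels of any member, and the summed level of the U-box class was 1848 FPKM in LK root and 659 FPKM in NK root. Both genes have estimated counts with decimals, which can arise when a fragment is split between similar genes, so their values are uncertain. The same holds for 18 of the 37 U-box genes in root, and among the others 15 were higher and 4 lower.

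All 4 listed PUB23-like genes were higher in root. Ma07_g03320 measured 99.2 FPKM in LK root and 7.0 FPKM in NK root, 14.2-fold higher (interval 6.11 to 33.6). Its coding length is 240 bases, against 1239 bases for Ma07_g03310, and both match 1 database protein, so the pair may share fragments and cannot be counted as independent. Ma11_g10310 had 22 fragments in LK root (4.16 FPKM) and none in NK root. With the NK library set at the floor of 3 fragments it was 7.75-fold higher. A fold against the floor leaves out counting error in the other library, so it is not a strict lower bound. Ma09_g30210 measured 5.38 FPKM in LK root and 1.27 FPKM in NK root.

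The 4 U-box 21-like genes were all higher as well. Ma07_g19970 measured 44.5 FPKM in LK root and 6.70 FPKM in NK root, 6.63-fold higher (interval 4.72 to 9.56). Ma06_g12780 measured 59.6 FPKM in LK root and 10.1 FPKM in NK root, 5.91-fold higher (interval 4.47 to 7.93). All 4 of these genes have whole counts. Ma06_g04150 was 2.97-fold higher, at 66.1 FPKM in LK root and 22.2 FPKM in NK root. Ma11_g09050 rested on 44 fragments in LK root and 2 in NK root, 23.1-fold higher with an interval of 6.02 to 196. The U-box 44-like gene Ma03_g20520 measured 21.2 FPKM in LK root and 2.80 FPKM in NK root, 7.56-fold higher (interval 5.40 to 10.9). Its Arabidopsis namesake, also called SAUL1, holds back early leaf senescence. U-box 26 (Ma09_g08400), whose Arabidopsis namesake acts on the immune kinase BIK1, measured 80.1 FPKM in LK root and 23.3 FPKM in NK root. U-box 27-like genes were higher for 3 of 3, at 2.01-fold to 2.66-fold, and the pair of U-box 35-like genes were 2.25-fold and 2.11-fold higher.

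The 8 U-box genes lower in root included every listed U-box 30-like copy. Ma08_g04800, the most abundant of the 3, measured 29.9 FPKM in LK root and 71.2 FPKM in NK root, 2.38-fold lower (interval 1.99 to 2.86). Ma02_g10520 measured 6.48 FPKM in LK root and 28.9 FPKM in NK root, 4.46-fold lower (interval 3.13 to 6.57). Ma03_g26970 measured 0.88 FPKM in LK root and 8.43 FPKM in NK root. The counts of all 3 are not whole, so the copies may trade fragments, and their common direction cannot be counted as independent. U-box 10 (Ma09_g15010), whose Arabidopsis namesake targets the jasmonate factor MYC2, measured 9.48 FPKM in LK root and 30.7 FPKM in NK root, 3.23-fold lower (interval 2.53 to 4.18). U-box 4-like copies were split, with 4 higher and 2 lower. The lower copies, Ma04_g30900 and Ma01_g16240, measured 3.77 and 2.0 FPKM in LK root, against 14.3 and 12.03 FPKM in NK root.

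**Figure D3:**
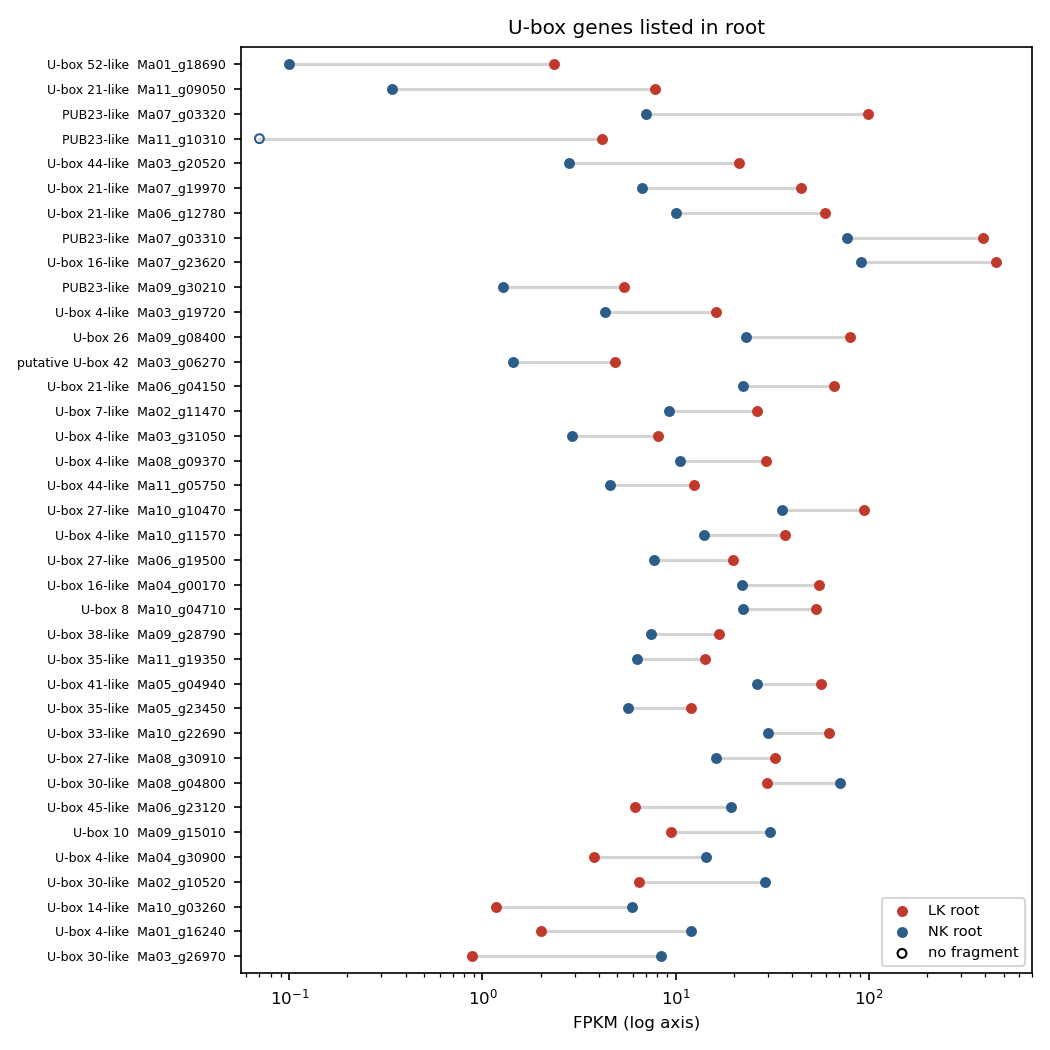
FPKM (x axis, log scale) of the 37 U-box genes listed in root, 1 row per gene, ordered by log2 ratio, with LK root in red and NK root in blue. An open circle at the left edge stands for a library with no fragment of that gene. The red point is to the right of the blue in 29 rows, and the 16-like and PUB23-like genes Ma07_g23620 and Ma07_g03310 reach the highest levels.

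RING genes were higher for 20 of 30 in root (66.7%), where 40.4% of all listed genes were higher. Both sides held members of the ATL family, membrane-anchored RING-H2 ligases. Of 16 ATL genes, 11 were higher and 5 lower. The largest ratio among the higher RING genes was that of ATL8-like (Ma10_g08310), at 72.9 FPKM in LK root and 3.74 FPKM in NK root, 19.5-fold higher (interval 10.02 to 43.4). The most abundant RING gene was RHA1a-like (Ma04_g32980), at 163 FPKM in LK root and 20.8 FPKM in NK root, 7.87-fold higher (interval 5.69 to 11.1). ATL51-like (Ma10_g16820) measured 30.9 FPKM in LK root and 5.99 FPKM in NK root, and ATL17-like (Ma08_g10110) 89.8 FPKM in LK root and 24.8 FPKM in NK root. The ratios of the 3 ATL6-like genes lay between 2.15-fold and 3.17-fold higher. Among them Ma10_g24780, with counts that are not whole, reached 130 FPKM in LK root and 60.6 FPKM in NK root. ATL6 and its relative ATL31 of Arabidopsis act on 14-3-3 proteins in the response to the balance of carbon and nitrogen. ATL29-like (Ma10_g07660) went the other way, with 9.81 FPKM in LK root and 37.1 FPKM in NK root, 3.79-fold lower (interval 2.58 to 5.69). ATL46-like (Ma03_g10160) measured 15.4 FPKM in LK root and 34.9 FPKM in NK root, 2.27-fold lower (interval 1.71 to 3.03). ATL2 (Ma05_g30470), whose Arabidopsis namesake responds quickly to chitin, measured 2.32 FPKM in LK root and 17.0 FPKM in NK root, 7.31-fold lower (interval 3.32 to 19.04).

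Copies with 1 name also differed in direction within the RING class. Of 3 RHA2A-like genes, named for an Arabidopsis ligase that promotes abscisic acid responses, Ma10_g20150 measured 118 FPKM in LK root and 56.7 FPKM in NK root. Its listed copies Ma09_g18360 and Ma06_g11000 were lower, at 12.5 and 10.4 FPKM in LK root, against 33.6 and 28.5 FPKM in NK root. All 3 genes have whole counts. Of 4 genes named RING1, after an Arabidopsis ligase linked to cell death, 3 were higher in root, led by Ma04_g07750 at 127 FPKM in LK root and 53.2 FPKM in NK root. Ma02_g05740 was the exception, with 2 fragments in LK root and 20 in NK root. Both genes named for RING and CHY zinc fingers were higher, by 2.04-fold and 2.71-fold.

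Of the ligases of the remaining class, 13 were higher (54.2%) and 11 lower in root, where 40.4% of all listed genes were higher. Both MBR-like genes, named for ligases that promote flowering in Arabidopsis through the Mediator subunit MED25, were higher. MBR1-like (Ma10_g05330) measured 72.0 FPKM in LK root and 9.78 FPKM in NK root, 7.36-fold higher (interval 5.65 to 9.72). MBR2-like (Ma01_g18900) measured 44.7 FPKM in LK root and 10.8 FPKM in NK root, 4.14-fold higher (interval 3.15 to 5.49). RNF4-like (Ma11_g14000), named for a mammalian ligase that recognises SUMO chains, was 3.72-fold higher (interval 2.61 to 5.43). The pair of RMA1-like genes, whose relatives in pepper and Arabidopsis sit in the endoplasmic reticulum and act on aquaporins, were both higher, by 2.37-fold and 2.13-fold. The highest level of this class was that of the RMA1-like gene Ma02_g05870, at 73.0 FPKM in LK root and 30.7 FPKM in NK root. The BAH1-like 1 genes Ma03_g08000 and Ma05_g02600, related to the Arabidopsis ligase NLA that acts on phosphate transporters, were 3.32-fold and 2.38-fold higher. The RGLG2-like genes Ma08_g01210 and Ma02_g07420 were 3.26-fold and 2.02-fold higher, with counts that are not whole.

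The lower side of this class held BOI-related genes, named for an Arabidopsis ligase of pathogen and DELLA responses. In root 3 of 4 were lower. The most abundant, Ma10_g12540, measured 13.04 FPKM in LK root and 35.05 FPKM in NK root, 2.69-fold lower (interval 1.97 to 3.71). Ma06_g09880 had 1 fragment in LK root and 30 in NK root, 27.9-fold lower with an interval of 4.63 to 1137. In leaf, by contrast, both listed BOI-related genes (Ma02_g20090 and Ma04_g21080) were higher, by 3.96-fold and 3.73-fold. They are other genes than those listed in root, and the difference between the tissues was not tested. SIS3 (Ma01_g13970), of the Arabidopsis sugar response, was 2.26-fold lower (interval 1.72 to 3.01), and both LIN-1 genes, named for a ligase of root nodule infection in Lotus japonicus, were 2.16-fold and 4.53-fold lower. ORTHRUS 2-like (Ma09_g01060), of a family that binds methylated DNA, measured 2.95 FPKM in LK root and 9.14 FPKM in NK root.

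BTB/POZ genes were the one class mostly lower in root, at 13 of 18 (72.2%), against 59.6% of all genes listed there. They were weakly expressed, and only 1 higher and 1 lower gene had a larger FPKM of at least the median of the table. Of all such genes in root, 48.5% were higher. With whole counts only, 5 were higher and 7 lower. All 4 NPY genes, of the NPH3 family that in Arabidopsis works with auxin transport in organ formation, were lower. NPY4-like Ma04_g10900 measured 3.64 FPKM in LK root and 41.6 FPKM in NK root, 11.4-fold lower (interval 7.70 to 17.6). The other 3 NPY genes were 2.62-fold to 3.45-fold lower. Of the 12 genes named after an Arabidopsis locus, 9 were lower, including Ma03_g14940, with 2 fragments in LK root and 54 in NK root. Ma01_g03880 (At3g22104-like) had no fragment in LK root and 24 in NK root. With the LK library set at the floor of 3 fragments it was 7.57-fold lower. A second At3g22104-like gene, Ma02_g15950, was 3.13-fold higher.

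The pair of BTB genes with a TAZ zinc finger stood on the other side. The BTB and TAZ protein 1-like gene (Ma10_g03840) measured 249.6 FPKM in LK root and 29.4 FPKM in NK root, 8.50-fold higher (interval 7.12 to 10.2). It held most of the summed BTB/POZ level of 358 FPKM in LK root, against 243 FPKM in NK root. The 2-like gene Ma06_g13590 measured 10.7 FPKM in LK root and 1.72 FPKM in NK root, 6.19-fold higher (interval 2.90 to 15.2). In Arabidopsis and rice, BTB and TAZ proteins lower the efficiency of nitrate use. In leaf the 1 listed BTB and TAZ gene, Ma00_g02970, had no fragment in LK leaf and 14 in NK leaf. With the LK library set at the floor of 3 fragments it was 4.56-fold lower.

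**Figure D4:**
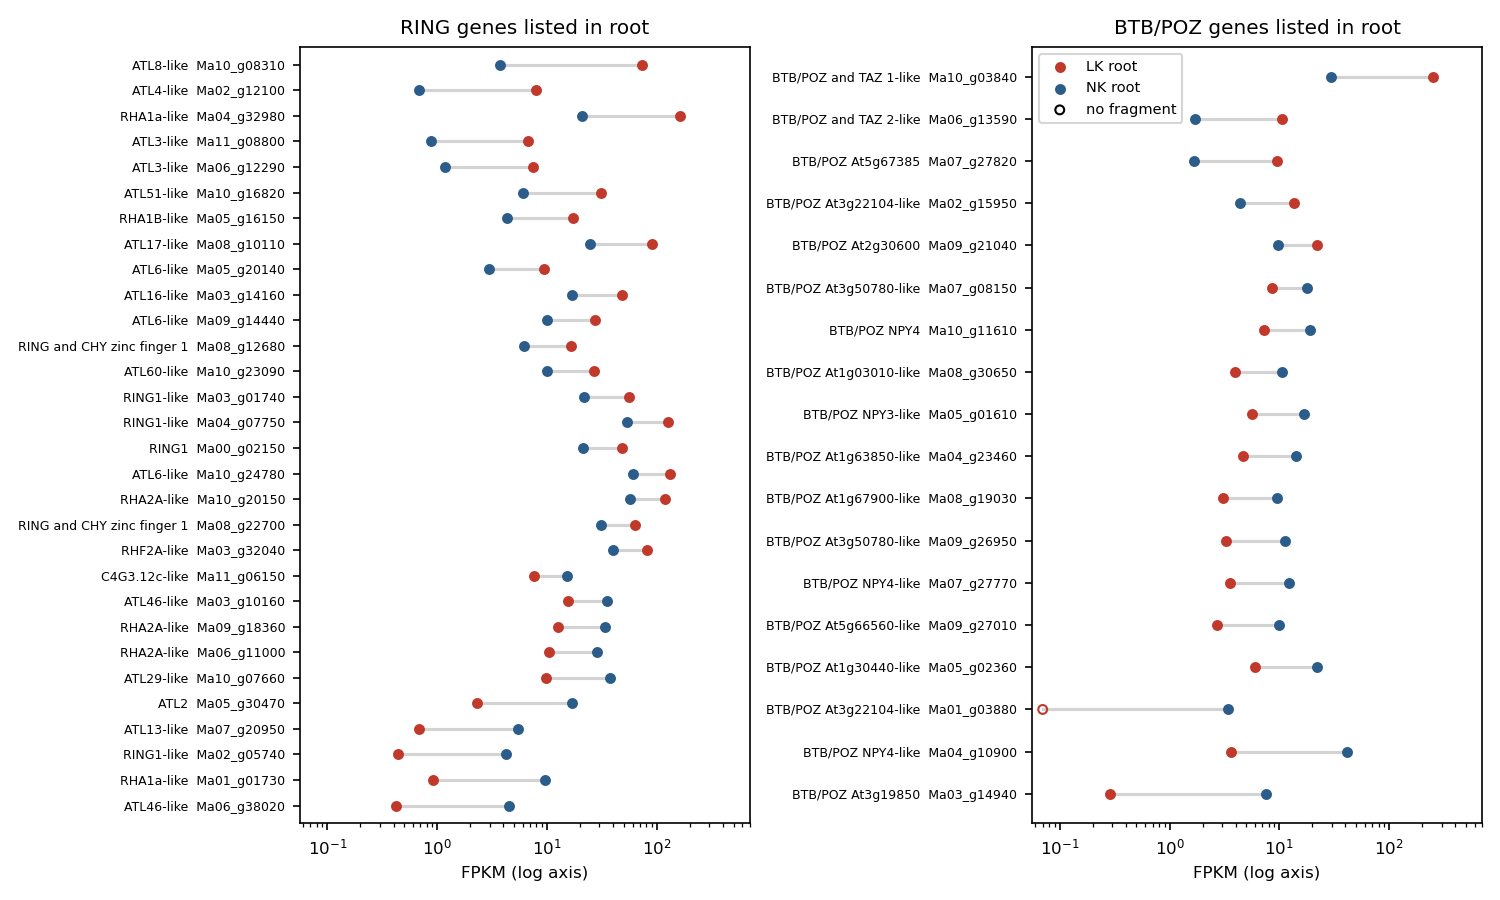
FPKM (x axis, log scale) of the 30 RING genes (left) and 18 BTB/POZ genes (right) listed in root, ordered by log2 ratio, with LK root in red, NK root in blue and an open circle for no fragment. Red lies to the right of blue in 20 RING rows and 5 BTB/POZ rows, and the BTB and TAZ gene Ma10_g03840 stands apart at 249.6 FPKM.

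F-box genes were 16 higher (53.3%) and 14 lower in root, where 40.4% of all listed genes were higher. The kelch-repeat and leucine-rich-repeat kinds were each 4 higher and 2 lower, tubby-like genes 3 higher and 2 lower, and the remaining kinds 5 higher and 8 lower. The F-box protein At5g46170-like gene (Ma05_g02460) had the largest ratio among the higher F-box genes, at 58.7 FPKM in LK root and 8.53 FPKM in NK root, 6.88-fold higher (interval 5.01 to 9.64). The At4g22030 gene (Ma07_g13490) measured 99.6 FPKM in LK root and 25.3 FPKM in NK root, 3.94-fold higher (interval 3.27 to 4.78). The leucine-rich-repeat gene At3g48880-like (Ma11_g03280) measured 30.3 FPKM in LK root and 8.56 FPKM in NK root, 3.54-fold higher (interval 2.35 to 5.48). Tubby-like F-box protein 8 (Ma03_g23610) was the most abundant, at 112 FPKM in LK root and 54.1 FPKM in NK root. Its tubby domain binds membrane phospholipids. The kelch-repeat genes At1g80440-like (Ma10_g21770) and At1g15670-like (Ma05_g05980) were 6.35-fold and 3.37-fold higher. Their Arabidopsis namesakes act against phenylalanine ammonia-lyase and cytokinin response regulators.

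On the lower side, both FBW2-like genes, after an Arabidopsis protein that limits ARGONAUTE1, were lower. Ma05_g19690 measured 8.98 FPKM in LK root and 40.1 FPKM in NK root, 4.47-fold lower (interval 3.10 to 6.59), and Ma06_g32130 was 2.51-fold lower. Both LRR-repeat protein 17-like genes, after an Arabidopsis protein that removes inhibitors of cell division, were 2.91-fold and 5.11-fold lower. The pair of tubby-like F-box protein 5 genes was 3.15-fold and 3.34-fold lower. The F-box only protein 6-like gene (Ma05_g09630) measured 1.31 FPKM in LK root and 10.7 FPKM in NK root, 8.18-fold lower (interval 3.52 to 23.3). The lower F-box genes were mostly weakly expressed: with a larger FPKM of at least the median of the table, 10 higher and 1 lower remained. Of all genes listed in root that passed this filter, 48.5% were higher. The F-box median log2 ratio, 1.13, turned to -1.03 when genes with counts that are not whole were left out.

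In leaf the class with the most members was F-box, with 8 higher and 3 lower. That is 72.7% higher, near the 67.4% of all genes listed in leaf. With a larger FPKM of at least the median of the table, 2 higher and 2 lower F-box genes remained, where 69.3% of all such genes were higher. The median log2 ratio of these F-box genes was 0.22, against 2.19 for all 11. A MAX2 homolog (Ma06_g00620), the F-box protein through which strigolactones and karrikins signal, measured 30.2 FPKM in LK leaf and 6.24 FPKM in NK leaf, 4.84-fold higher (interval 3.61 to 6.58). A second MAX2 homolog, Ma03_g03380, measured 6.79 FPKM in LK leaf and 1.44 FPKM in NK leaf, 4.72-fold higher (interval 2.56 to 9.36). AFR (Ma03_g13310), of far-red light signalling in Arabidopsis, was 5.07-fold higher (interval 3.11 to 8.65). The kelch-repeat At2g44130-like gene Ma09_g07760 was 4.85-fold higher in leaf, while its namesake Ma06_g30510 was 4.26-fold lower in root. The At5g67140 gene (Ma06_g04580) measured 52.4 FPKM in LK leaf and 18.6 FPKM in NK leaf. EID1-like F-box protein 2 (Ma04_g03430), after another component of far-red signalling, was the most abundant leaf member, at 42.5 FPKM in LK leaf and 98.6 FPKM in NK leaf, 2.32-fold lower (interval 1.88 to 2.88). Tubby-like F-box protein 1 (Ma04_g10520) was 2.08-fold lower.

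U-box genes were higher for 7 of 8 in leaf (87.5%), where 67.4% of all listed genes were higher. Of these genes 2 higher and no lower ones had a larger FPKM of at least the median of the table, where 69.3% of all such genes were higher. U-box 19-like (Ma03_g06110) measured 10.3 FPKM in LK leaf and 0.46 FPKM in NK leaf, 22.4-fold higher with an interval of 8.45 to 84.1 from 4 fragments in NK leaf. U-box 26-like (Ma07_g24780) was the most abundant of the class, at 43.9 FPKM in LK leaf and 21.03 FPKM in NK leaf. U-box 4-like (Ma07_g27710) measured 32.5 FPKM in LK leaf and 12.4 FPKM in NK leaf, 2.63-fold higher (interval 1.91 to 3.67). U-box 52-like (Ma02_g17530) was 2.03-fold lower. Its namesake in root, Ma01_g18690, had 22 fragments in LK root and 1 in NK root. The summed level of the leaf U-box genes was 154 FPKM in LK leaf and 67.0 FPKM in NK leaf.

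The 5 leaf RING genes were split, with 2 higher and 3 lower, where 67.4% of all genes listed in leaf were higher. ATL31-like (Ma03_g06620) measured 21.6 FPKM in LK leaf and 2.15 FPKM in NK leaf, 10.03-fold higher (interval 5.39 to 20.7). RING1-like Ma05_g07430 measured 4.60 FPKM in LK leaf and 49.1 FPKM in NK leaf, 10.7-fold lower (interval 6.68 to 18.1), with counts that are not whole. BTB/POZ genes were lower for 4 of 5 in leaf, against 32.6% of all genes listed there. The most abundant was the At1g55760-like gene Ma09_g12430, at 9.06 FPKM in LK leaf and 20.1 FPKM in NK leaf. A second At1g55760-like gene, Ma07_g21680, was 4.96-fold lower (interval 2.58 to 10.5). Of the other ligases 4 of 5 were higher, where 67.4% of all genes listed in leaf were higher. Among these ligases was RMA1H1-like (Ma11_g07190), 5.52-fold higher (interval 2.10 to 18.4). KEG-like (Ma08_g25940), after the Arabidopsis ligase that removes the abscisic acid factor ABI5, was lower. It lay just inside the authors' limit, at 11.8 FPKM in LK leaf and 23.5 FPKM in NK leaf, a log2 ratio of -1.0. The member nearest the limit in root was an uncharacterised RING finger gene, Ma11_g06150, at 7.55 FPKM in LK root and 15.2 FPKM in NK root.

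The 8 members listed in both tissues make 23.5% of the leaf members and 5.76% of the root members. For all listed genes, the 410 in both tables make 34.7% of the leaf table and 8.64% of the root table. The direction was the same in both tissues for 7 of the 8, and for 72.9% of the 410. MBR1-like (Ma10_g05330) measured 33.4 FPKM in LK leaf and 6.47 FPKM in NK leaf, 5.17-fold higher (interval 3.67 to 7.45), beside its 7.36-fold difference in root. The MAX2 homolog Ma06_g00620 measured 38.1 FPKM in LK root and 12.7 FPKM in NK root, 2.99-fold higher (interval 2.43 to 3.72). SKP2A-like (Ma06_g19950), an F-box protein of cell division in Arabidopsis, measured 11.0 FPKM in LK leaf and 1.57 FPKM in NK leaf. In root it measured 24.1 FPKM in LK root and 10.4 FPKM in NK root. U-box 16-like Ma07_g23620 and PUB23-like Ma07_g03310 were 4.66-fold and 4.44-fold higher in leaf, at 22.9 and 20.6 FPKM in LK leaf against 4.91 and 4.64 FPKM in NK leaf. The tissues come from separate tables, so levels are not strictly comparable between them. On the deposited FPKM scale both genes stood higher in root than in leaf.

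Lower in both tissues were ATL46-like (Ma06_g38020) and RHA2A-like (Ma09_g18360). ATL46-like measured 13.04 FPKM in LK leaf and 30.3 FPKM in NK leaf, 2.32-fold lower (interval 1.71 to 3.19). In root it had 2 fragments in LK root and 23.01 in NK root, 10.8-fold lower with an interval of 2.67 to 94.5. RHA2A-like measured 4.82 FPKM in LK leaf and 19.9 FPKM in NK leaf, 4.13-fold lower (interval 1.96 to 9.71). The F-box protein At5g06550 gene (Ma03_g26830) was the member with opposite directions. It measured 7.82 FPKM in LK leaf and 2.75 FPKM in NK leaf, 2.84-fold higher (interval 1.63 to 5.18). In root it measured 4.42 FPKM in LK root and 12.4 FPKM in NK root, 2.81-fold lower (interval 1.82 to 4.44).

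**Figure D5:**
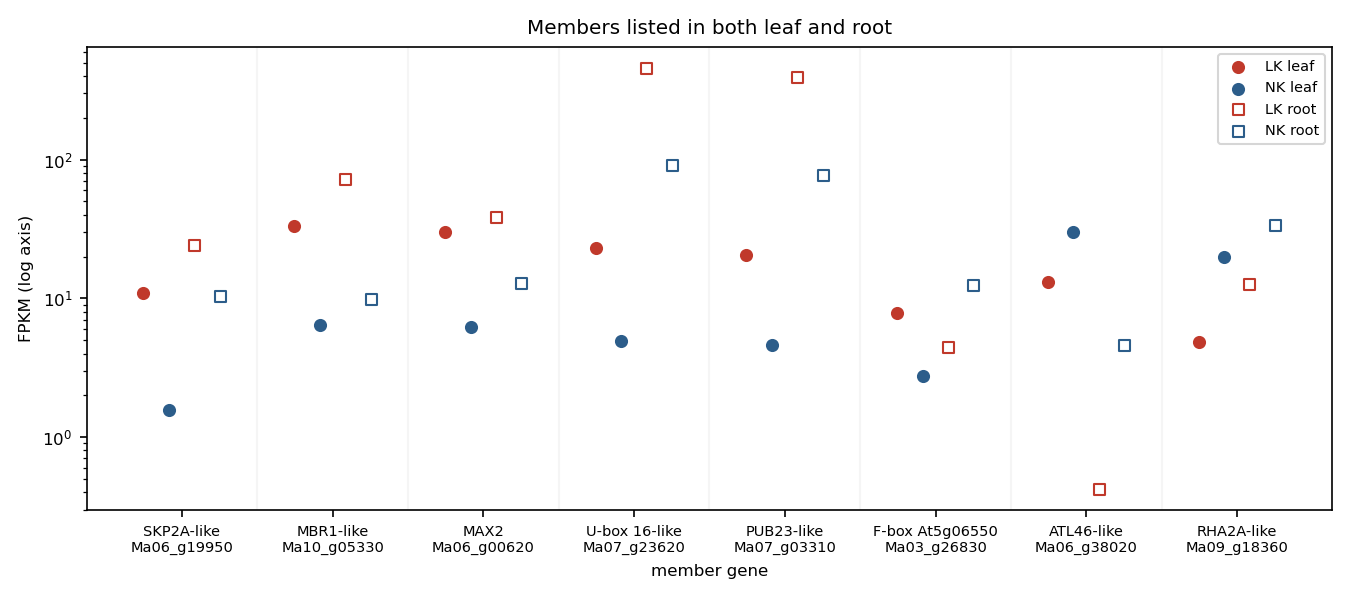
FPKM (y axis, log scale) of the 8 members listed in both tissues, in LK leaf, NK leaf, LK root and NK root from left to right within each gene. Red marks low and blue normal potassium, filled circles leaf and open squares root. Red stands above blue in both tissues for 5 genes and below it for ATL46-like and RHA2A-like, while the At5g06550 gene changes order between leaf and root.

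The members were also described by annotation that the rule did not use. In root, 125 of 139 carried a KEGG match, and 47 of these named ubiquitin or its ligase enzyme class, 26 in the RING class and 21 among the other ligases. No F-box, U-box or BTB/POZ gene had such a match. Of those 47, 31 were higher and 16 lower, where 40.4% of all genes listed in root were higher. All 47 were already counted in the RING and other classes above, so their split is not a separate result. The U-box class was instead matched to vacuolar protein 8, a yeast protein made of armadillo repeats, for 31 of 37 genes in root and 7 of 8 in leaf. The members are of usual length for their table, with a median coding length of 1263 bases in root, against 1137 bases for all listed genes. Counts that are not whole were found for 30.9% of the root members and 43.6% of all genes listed in root. Besides those already noted, values given above rest on such counts, and are uncertain, for these root genes: U-box Ma07_g03320, Ma09_g08400, both 35-like genes and the 27-like genes Ma10_g10470 and Ma06_g19500; RING Ma05_g20140, Ma03_g10160, Ma10_g07660, Ma06_g38020 and Ma11_g06150; BTB/POZ Ma04_g10900 and Ma07_g27770; and F-box Ma07_g13490, Ma05_g05980, Ma06_g00620, Ma03_g23610 and the tubby-like 5 pair. In leaf the same holds for Ma04_g10520, Ma08_g25940, Ma07_g23620 and Ma07_g03310.

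Other genes of the ubiquitin pathway were few in the tables. In root, 7 conjugating enzymes were listed, 3 higher and 4 lower, near the 59.6% lower among all genes listed in root. The conjugating enzyme of the 17 kDa type, Ma03_g11680, measured 896 FPKM in LK root and 439.9 FPKM in NK root, 2.04-fold higher (interval 1.87 to 2.22). Conjugating enzyme 10 (Ma10_g06820) measured 146 FPKM in LK root and 58.8 FPKM in NK root. The 20-like gene (Ma03_g08640), of a kind known from cell division, measured 21.8 FPKM in LK root and 125 FPKM in NK root, 5.72-fold lower (interval 4.2 to 7.94). The 22-like gene (Ma04_g27270) measured 39.9 FPKM in LK root and 83.2 FPKM in NK root. Of these conjugating enzymes, the 20-like gene has whole counts and the other 3 named do not. All 5 ubiquitin fusions with a ribosomal protein were lower in root, where 59.6% of all listed genes were lower. All 5 have counts that are not whole. The most abundant was Ma01_g17420, at 258 FPKM in LK root and 599.9 FPKM in NK root. Next was Ma08_g30330, at 113 FPKM in LK root and 276 FPKM in NK root. Of 7 enzymes that remove ubiquitin, 3 were higher and 4 lower, also near the share over all genes listed in root. The AMSH-like gene Ma05_g08750 measured 48.6 FPKM in LK root and 13.6 FPKM in NK root, 3.57-fold higher (interval 2.63 to 4.90). The OTU domain gene Ma08_g13020 was 2.91-fold higher, at 21.6 FPKM in LK root and 7.41 FPKM in NK root. The carboxyl-terminal hydrolases Ma03_g18600, with counts that are not whole, and Ma09_g10020 were 2.43-fold and 2.07-fold lower.

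All 4 listed autophagy genes were higher in root, where 40.4% of all listed genes were higher. The most abundant was the ATG8-type gene Ma08_g10960, which tags autophagy membranes, at 270.2 FPKM in LK root and 106 FPKM in NK root. A second ATG8-type gene, Ma04_g30190, measured 148 FPKM in LK root and 66.99 FPKM in NK root, with counts that are not whole. In leaf the conjugating, fusion, deubiquitinating and autophagy lists had no listed gene. A cullin-3A-like gene (Ma05_g18690), the scaffold to which BTB proteins attach, measured 17.4 FPKM in LK leaf and 7.19 FPKM in NK leaf, 2.41-fold higher (interval 1.80 to 3.26). In root the 1 gene of the cullin list was SKP1-interacting partner 15-like (Ma08_g07720), itself an F-box type adaptor, 2.24-fold higher. Proteasome subunit 11 (Ma02_g02810) was the 1 proteasome gene listed, at 12.7 FPKM in LK leaf and 4.90 FPKM in NK leaf. In root it measured 7.89 FPKM in LK root and 25.5 FPKM in NK root, the opposite order, with root counts that are not whole. A UBX domain protein (Ma09_g15030) was 2.37-fold higher in root, and no gene of the COP9 signalosome was listed.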

How the data were processed

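RNA of 4 samples was sequenced, with 1 library per combination of tissue and potassium supply. Per the labels' protocols, polyadenylated RNA was fragmented and copied with random hexamers. The described steps do not mark the strand, so antisense overlap cannot be told apart. The authors deposited 1 table per tissue of genes past a filter. Per the file headers, each table holds for both samples an estimated count and the FPKM, and for their comparison a log2 ratio, p-value and FDR, beside annotation. The largest deposited FDR was 0.000995 and the smallest absolute deposited log2 ratio 1.0. The deposited log2 ratio was that of the FPKM columns, where 0.001 stands for no fragment. Estimated counts deposited by the authors are more than 0.001 from a whole number in either library for 40.5% of leaf and 43.6% of root genes. Aligner, counting program, genome build and test were not given in the sources used here.

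Members were found by words in the database match, and classes by name in the order F-box, U-box, BTB/POZ, RING and other. The RING class is by name, and several other ligases also carry a RING domain. Members, lists and classes were chosen with earlier results of these data known, and the smaller families were grouped after their values were seen. Of the 165 members, 132 matched a protein accession of the supplied RefSeq table, whose assembly is another, so no coordinates were used. Depth per library is the slope of count over FPKM against gene length, over genes above 100 fragments and 5 FPKM within 1% of the line. Intervals are Clopper-Pearson for the LK count given both counts, rounded. Neither the intervals nor the floors (3 fragments) hold more than counting error, since copies made by PCR are not separate molecules. Named genes were chosen per tissue and class among members whose larger FPKM was at least the median over the table (23.1 in leaf, 28.5 in root), as the 3 higher and 3 lower with the largest ratio in root, or 2 and 2 in leaf. The rule adds the most abundant member per class, members in both tables, the most abundant with no fragment in 1 library per direction, the one nearest the limit and the 2 most abundant genes per pathway list and direction. Further members were named after their values were seen. Depth and interval steps were tested on simulated data. The simulation drew whole counts with counting error alone, and FPKM on the straight line that the depth step fits. It therefore checks the code, and cannot speak to counts that are not whole or to spread between replicates. Alternatives were another ratio, filters, limits and member rules. The potassium transport table holds none of these gene identifiers and was not used. Python 3.11.15, SciPy 1.17.1 and pandas 2.3.3 were used.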

Additional observations from a re-analysis of the deposited data

Results flagged for a closer look

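The F-box protein At5g06550 gene (Ma03_g26830) stood apart because its direction differed between the tissues. Low over normal potassium, its log2 ratio came to 1.51 in the leaf libraries and -1.49 in the root libraries. The difference between the tissues was not tested. The proteasome subunit 11 gene (Ma02_g02810) did the same, with a log2 ratio of 1.38 in leaf and -1.69 in root, also not tested. Its root counts are not whole. Each value compares 1 library with 1 library.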

How the results depend on the processing

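No paired analysis was possible because each group has 1 library and no test was run, and for the same reason no replicate could be left out. Of 54 values of the member counts and medians under an alternative, 36 stayed within 1.5 times the reported count or 0.1 of the reported median. A count has no direction to change, so only the medians could reverse, and none did. The tally of 36 includes alternatives that had little room to differ. Keeping genes whose counting interval excludes 1 left 22 higher and 12 lower in leaf and 83 and 56 in root, as reported. Those genes had already passed the authors' limits of ratio and FDR. Counts over recovered depth nearly repeat the FPKM ratio. Keeping members with a larger FPKM of at least the table median gave 5 higher, 5 lower and a median log2 ratio of 0.030 in leaf, and 45 higher, 10 lower and 1.32 in root. Leaf thus lost its higher majority under that filter. A log2 limit of 2 gave 14 higher, 4 lower and 2.27 in leaf, and 25 higher, 21 lower and 2.21 in root, by construction fewer genes. Taking the words RING finger, RING-H2 and BTB/POZ out of the member rule gave 20 higher and 7 lower in leaf (median 1.99). In root it gave 68 higher and 36 lower. Genes of the RING class that are called a ubiquitin-protein ligase stayed in, 1 higher and 2 lower in leaf and 10 and 3 in root. The leaf median was 1.44 with a pseudocount of 1, 1.91 with whole counts only and 1.5 with at least 10 fragments in both libraries, the last chosen after seeing the data. Class medians changed sign with whole counts only and with a log2 limit of 2, in that order, to 0.53 and 0.11 for leaf RING, to -1.03 and -2.16 for root F-box and to -0.028 and -0.065 for the other root ligases. No listed gene has an absolute log2 ratio under 1, so the median of a class split near evenly can jump across that gap. With whole counts only, root F-box genes were 10 higher and 12 lower, and the other root ligases 10 and 10. With a log2 limit of 2 they were 3 and 6, and 3 and 3. Leaf RING genes were 2 and 2 under both. Why the splits differed was not tested. Of the 102 alternative values of named genes 3 fell under 2-fold, those of Ma08_g25940 and Ma11_g06150. None changed sign, but this was fixed in advance. A pseudocount cannot change the sign of a ratio. Counts over recovered depth, where both libraries had fragments, differed in log2 by at most 0.0557 in leaf and 0.0824 in root. In root 28 of 139 members and in leaf 8 of 34 had under 10 fragments in 1 library, which limits the precision of their folds.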
